A study of Rattus norvegicus with 8 samples.

Results

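The genes described here encode chaperones and proteases of the mitochondrial matrix and inner membrane, which fold imported proteins and degrade damaged ones. They were chosen by name, and the list holds Hspd1, Hspe1, Hspa9, Grpel1, Trap1, Lonp1, Clpp, Clpx, Afg3l2 and Spg7. All 10 have an entry in the gene table, each on 1 entry, of 14016 entries in all. The samples were thyroarytenoid (TA) muscle, a muscle of the vocal fold, taken from 8-month-old male Long Evans rats of which 4 were Pink1-/- and 4 were WT. Pink1-/- rats lack Pink1 in every tissue and serve as a genetic model of Parkinson's disease. RNA was sequenced from both genotypes. The values used are the authors' averages, 1 per gene over all 8 rats and both genotypes, as log2 CPM, the reads of a gene scaled to a common library size and put on a log2 scale. There are 0 columns of values per rat. A level in Pink1-/- rats, a level in WT rats, a spread between rats and a test of the genotype could therefore not be computed for any of these genes, and the depth of each library is unknown.

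Most mitochondrial proteins are made in the cytosol and enter as unfolded chains. In the matrix, the Hsp70 chaperone encoded by Hspa9 pulls the chains in and helps them fold. Some then pass to the ring-shaped chaperonin of Hspd1, which Hspe1 closes as a lid. Chains that cannot be folded are unfolded and cut by energy-driven proteases, among them Lonp1, the Clpx and Clpp pair, and the inner membrane protease built of Afg3l2 and Spg7. PINK1, the kinase that the deleted gene encodes, is itself imported and cleaved in healthy mitochondria, and on damaged mitochondria it builds up at the surface and marks them for removal. Skeletal muscle is rich in mitochondria and uses these chaperones and proteases throughout life.

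Hspd1 and Hspe1 lie head to head. Part of the sequence between their starts is shown because among the genes with a promoter window only this pair has overlapping windows. RefSeq's promoter windows on GRCr8, which run from 250 bases before to 50 bases after a gene's start, overlap here by 211 bases, at chr9:64084077-64084287, printed on the plus strand, the strand of Hspe1. Capitals mark the 1 match to GAANNTTC, the core of the heat shock element.

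Hspd1-Hspe1 shared window: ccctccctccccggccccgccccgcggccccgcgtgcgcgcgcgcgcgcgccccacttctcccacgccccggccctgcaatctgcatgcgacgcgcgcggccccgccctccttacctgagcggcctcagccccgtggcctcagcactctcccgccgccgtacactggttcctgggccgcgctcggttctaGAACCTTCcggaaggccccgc

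The annotated starts of Hspd1 and Hspe1 used for these windows are 290 bases apart, and 77.3% of the shared bases are G or C. The genome build of the sequencing data is not given in the sources used here, so these positions belong to RefSeq and not to the gene table. A window was found for 8 of the 10 genes. All motifs were searched on both strands. GAANNTTC occurs in the windows of 5 of the 8 (Hspd1, Hspe1, Hspa9, Clpp and Spg7), where Hspd1 and Hspe1 share the same match, and in 8.59% of all 33469 windows. GGGCGG, the GC box, occurs in 7 of the 8, the exception being Clpp, and in 33.1% of all windows, and here too Hspd1 and Hspe1 share the same 2 matches. CCAAT was found in the window of Grpel1 alone, against 37.5% of all windows, and TGATGNAA, the core of the amino acid response element, in that of Hspa9 alone, against 3.98% of all. CACGTG, the E box, was found in the windows of Clpp and Hspa9 and in 6.42% of all, TGACGTCA, the cAMP response element, in that of Trap1 and in 1.83% of all, and TATAAA in none of the 8 and in 14.2% of all. The motifs were chosen after the windows had been read, so the counts beside the shares of all windows are a description and not a test. These matches are letters in a window, and binding was not measured.

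Among the chaperones, Hspa9, the matrix Hsp70 that also drives protein import, had an average log2 CPM of 7.73, or about 213 CPM. Only 229 of the 14016 entries, or 1.63%, had a higher average. Grpel1, the nucleotide exchange factor that resets this Hsp70, had an average log2 CPM of 3.65, or about 12.6 CPM, with 5563 entries above it. Both values are shares of reads and are not divided by transcript length, so they do not give a ratio of transcripts between the partners.

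Hspd1, which forms the chaperonin ring, had an average log2 CPM of 7.07, or about 134 CPM, with 410 entries above it. Its lid, Hspe1, a much smaller protein, had an average log2 CPM of 3.85, or about 14.4 CPM, with 5052 entries above it. The genes that share the window printed above thus drew unequal shares of reads, and how much of this gap lies in transcript length was not tested. Trap1, the mitochondrial member of the Hsp90 family, had an average log2 CPM of 5.55, or about 46.7 CPM, with 1582 entries above it.

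**Figure D1:**
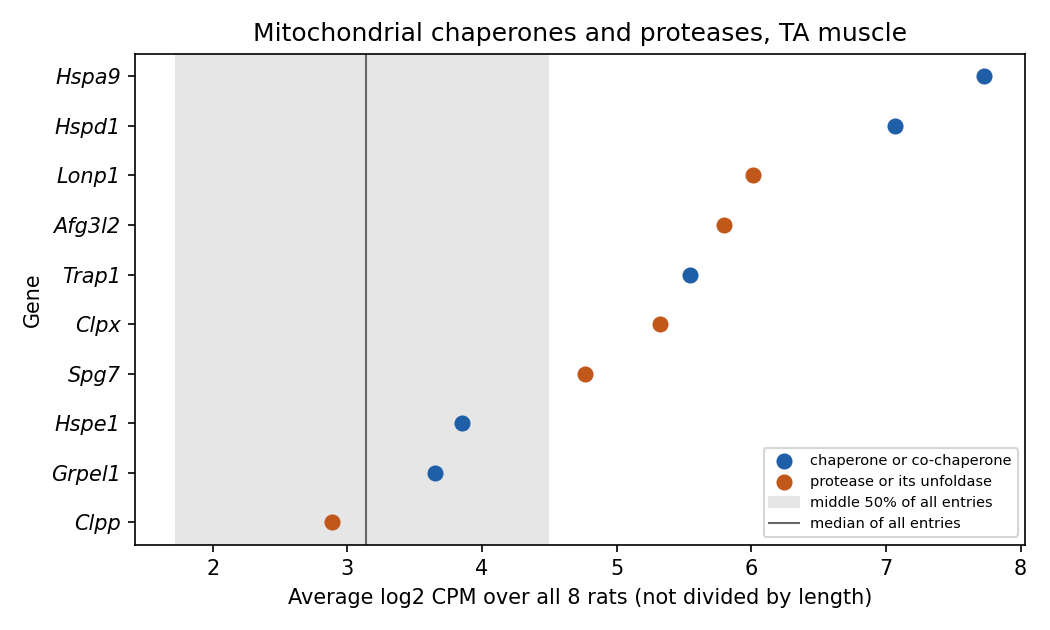
Average log2 CPM of the 10 genes (horizontal axis, the authors' average over 4 Pink1-/- and 4 WT rats, not divided by transcript length), with 1 point per gene and no error, since values per rat were not at hand. The grey band holds the middle 50% of all 14016 entries, from 1.73 to 4.49, and 7 of the 10 genes lie to its right, with Hspa9 at 7.73 and Clpp at 2.89 as the ends.

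Among the proteases, Lonp1, a matrix protease that removes oxidized and misfolded proteins, had an average log2 CPM of 6.01, or about 64.6 CPM, and 1056 entries lay above it. Clpx, the unfoldase that feeds proteins into the Clpp chamber, had an average log2 CPM of 5.32, or about 40.1 CPM. Clpp, the proteolytic chamber itself, had 2.89, or about 7.39 CPM. Clpp was the only 1 of the 10 genes below the median of all entries, which was 3.14, and 7699 entries lay above it.

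Afg3l2 and Spg7 encode subunits of the same protease of the inner membrane, which faces the matrix, and Afg3l2 can also form it alone. Afg3l2 had an average log2 CPM of 5.80, or about 55.6 CPM, and Spg7 had 4.77, or about 27.2 CPM. There were 1285 entries above Afg3l2 and 2879 above Spg7, so the average of each lay above the middle 50% of entries.

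By share of reads the order was Hspa9, Hspd1, Lonp1, Afg3l2, Trap1, Clpx, Spg7, Hspe1, Grpel1 and Clpp. Which neighbours in this order differ by more than the spread between rats cannot be told from averages. The members' median was 5.43 on the log2 CPM scale, beside 3.14 over all entries, and 9 of the 10 lay above the median of all entries. Together the 10 genes drew 615 CPM, 0.0605% of the summed CPM of the table, or 0.106% without the 2 entries with most reads. Hspa9 and Hspd1 made up 56.4% of the 615 CPM.

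Other genes of mitochondrial protein quality control were read from the same table. All 12 other chaperones, co-chaperones and scaffolds on the list had an entry, with a median average log2 CPM of 3.89. They ran from 1.63 for Hscb, a co-chaperone of iron-sulfur cluster assembly, to 5.75 for Dnaja3, a J-domain co-chaperone of the matrix Hsp70. Grpel2, the paralog of Grpel1, was at 3.11, and Phb, a scaffold of the inner membrane, was at 5.70. Of 14 listed proteases and peptidases, 12 had an entry, with a median of 4.16. They ran from 1.28 for Atp23 to 5.63 for Pitrm1, which degrades cleaved targeting sequences. Oma1, the stress-activated protease of the inner membrane, was at 3.86, and Parl, the protease that cleaves PINK1, was at 3.25.

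Chaperones of other compartments give a scale for these averages. Of 20 listed cytosolic chaperones, 18 had an entry, with a median average log2 CPM of 5.79, from 3.77 for the J-domain protein Dnajb1 to 9.55 for the Hsp90 gene Hsp90ab1. Hspa8, the constitutive cytosolic Hsp70, was at 9.36. All 11 listed chaperones of the endoplasmic reticulum (ER) had an entry, with a median of 5.84, from 1.19 for Sdf2l1 to 7.21 for calnexin (Canx). Hspa5, the Hsp70 of the ER, was at 7.10. The 10 members' median of 5.43 lay below both medians in shares of reads. The members include proteases as well as chaperones, so the sets are unlike, and these lists were not tested against each other.

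Regulators linked to mitochondrial and heat shock stress responses were read as well. Of the 6 regulators read, 5 had an entry, with a median average log2 CPM of 4.25. Atf4, the effector of the integrated stress response, was highest at 6.40, and Ddit3, which encodes CHOP, was lowest at 3.39. Atf5 was at 4.25, and Hsf1, the heat shock transcription factor, was at 4.05. Each of these is an average over both genotypes, so none says whether a stress response differed in Pink1-/- rats.

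**Figure D2:**
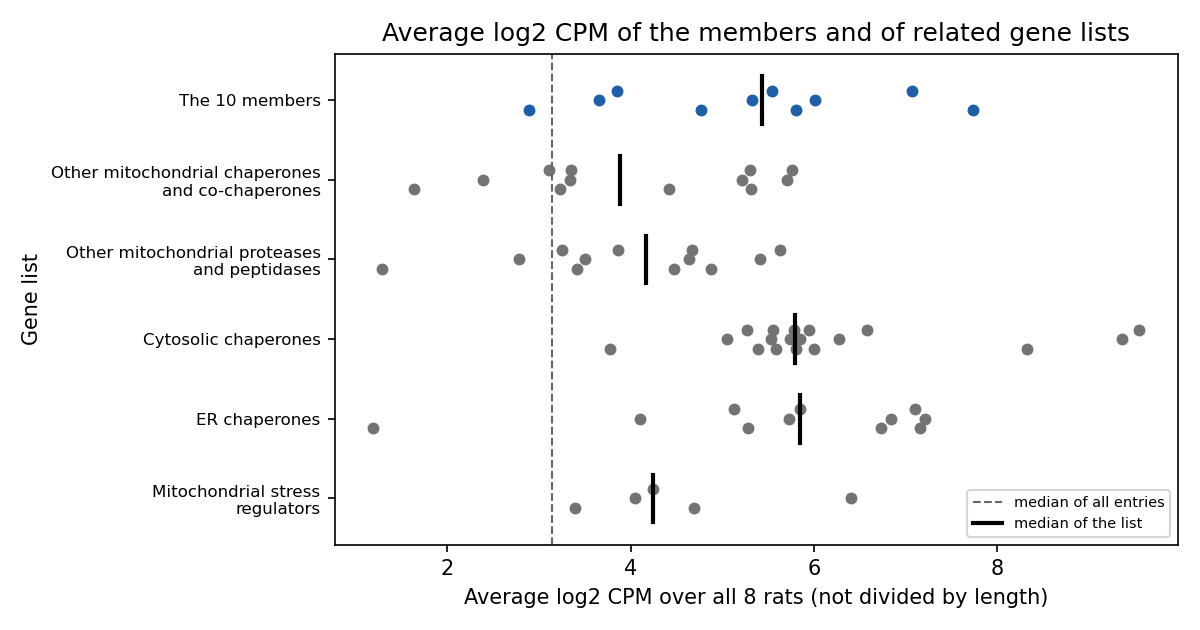
Average log2 CPM (horizontal axis, the authors' average over all 8 rats, not divided by transcript length) of the 10 members and of the genes with an entry in 5 related lists, with 1 point per gene, offset up or down only to keep points apart. The black bar is each list's median, 5.43 for the members, and the dashed line is the median of all entries, 3.14.

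The tissue label was read against marker genes on the same averages. All 8 skeletal muscle markers with an entry, of 12 listed, lay between 9.67 and 14.75, with the fast myosin gene Myh4 highest and the muscle creatine kinase Ckm at 12.15. The listed muscle genes Ttn, Myh1, Myh2 and Atp2a1 had no entry under these symbols, and the reason was not tested. The counts of entries above a gene cannot include genes without an entry. Genes of other tissues were in the averages too. The 7 squamous epithelial markers with an entry lay between 3.64 and 8.18, and the 4 secretory markers of airway glands with an entry between 2.88 and 11.74, with the mucin Muc5b highest. The ciliated cell marker Foxj1 and the secretory marker Ltf had no entry. Listed muscle genes lacked one too, so a missing entry does not show that a cell type was absent. Thyroglobulin (Tg) was at 6.24, while the other thyroid markers with an entry were at 0.03 and below, cartilage markers lay between 0.51 and 2.64 and adipocyte markers between 0.91 and 1.87. Endothelial markers lay between 5.41 and 6.02, and macrophage markers between 2.43 and 5.46. Mitochondria are not confined to muscle fibers, so the averages of the 10 genes sum over the cell types present, and the part of each was not tested. Pink1 itself averaged 7.49 over both genotypes, which cannot check the genotype labels. The 2 entries with most reads held 43.0% of the summed CPM and 13 entries named as genes of mitochondrial DNA another 10.7%, which lowers the CPM of every other gene, the 10 members included.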

How the data were processed

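RNA of TA muscle was sequenced from 4 Pink1-/- and 4 WT rats, grouped by the genotype in their labels. In the submitters' processing notes, RSEM (a read counter) and edgeR 3.9 are listed. Genes carry Ensembl identifiers. For the aligner, build, annotation release, filter and normalization factors, nothing is given in the sources used here. The deposited table has 1 row per gene. Its average log2 CPM, computed by the authors over all samples, was the only column of values used. The other 5 columns hold the authors' own comparison of genotypes (log2 fold change, likelihood ratio, p-value, adjusted p-value and status) and were not used. With 0 columns of values per rat, the planned genotype test was not run.

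Averages were raised from log2 to CPM, an approximation, since the way the authors averaged is not stated, and entries with a higher average were counted. Levels per length could not be computed, as no transcript or coding lengths were at hand. Sequences are RefSeq's (GRCr8), matched by symbol, with 10 members in the gene table and 8 in the promoter table. The scripts were tested on simulated data (Python 3.11.15, numpy 2.4.6, pandas 2.3.3, matplotlib 3.10.9). Members and lists were chosen with earlier results of these data known, and motifs after the promoter windows had been read (longer motifs of NRF1, YY1 and the ER stress element were also searched and are not reported). All members, Pink1, and the highest, the lowest and up to 2 more genes of each list were named. Timm14, listed beside Dnajc19, is another name of that gene and was counted once. A listed regulator is not reported here and was left out of its list's values. The markers named with a value were picked with their values in view.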

Additional observations from a re-analysis of the deposited data

How the results depend on the processing

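No symbol among the 10 genes stands on more than 1 entry, so summing entries left each average as given. The number of entries above each gene changed by at most 52 when 1 entry per symbol was kept. A minimum average log2 CPM of 1 removes none of the 10 genes and none of the genes in the 5 related lists, so it could not change a count or a median and says nothing about stability. Without the 2 entries with most reads, an alternative chosen after seeing the data, the 10 genes held 0.106% of the summed CPM in place of 0.0605%, because the sum is smaller. Not run were division by coding or transcript length, for which no lengths were at hand, and the genotype comparison with its alternatives (leaving out each rat, other size factors, no filter). The sample labels used here give no pairing of Pink1-/- with WT rats, and averages over all 8 rats would not allow a paired analysis. How depth limits these averages could not be assessed.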
